A study of Mus musculus with 5 samples.

Results

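Follicular regulatory T (Tfr) cells restrain germinal centre responses from within B cell follicles. Described here are 10 transcription factor genes that are linked to T cell quiescence, taken by gene name from the annotated rows of the tables: Foxo1, Foxo3, Foxp1, Klf2, Klf3, Klf4, Klf6, Klf7, Klf10 and Klf13. They are 10 of 57186 annotated genes, and all 10 were among the 16254 genes tested. RNA was sequenced from Tfr cells sorted from mouse spleen 21 days after imiquimod, a TLR7 agonist, as live CD4+ cells positive for Foxp3, CXCR5, for PD-1 and for ICOS. The WT group (n = 3) came from Foxp3-GFP reporter mice. The Cebpa-KO group (n = 2) came from Foxp3-Cre Cebpa-flox/flox mice, in which Cre expressed from Foxp3 deletes Cebpa in regulatory T cells. Cebpa encodes C/EBP alpha, a basic leucine zipper transcription factor. The groups therefore differed in the Foxp3 allele as well as in Cebpa. Every library pooled cells of several mice, so p-values measure only the spread between these pools. The ages of the mice are not given in the labels.

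FOXO proteins are forkhead factors of resting lymphocytes. Signals through PI3K and AKT phosphorylate them and move them out of the nucleus. In resting T cells FOXO1 keeps up Klf2, and KLF2 in turn keeps up S1pr1, which lets T cells recirculate. Krüppel-like factors share zinc fingers that bind GC-rich and CACCC sequences, and several of them restrain T cell division. Other members of the family are also induced rapidly by activation or handling of cells.

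Levels are in scaled TPM, which are transcript abundances deposited as TPM and adjusted by a factor for each library, with the SD over libraries. Aligned depth lay between 6.76 and 7.08 gigabases per library. Cebpa stood at 12.9, 17.7 and 12.8 in WT replicates 1, 2 and 3, and at 0.317 and 0.550 in Cebpa-KO replicates 1 and 2. All 6 listed markers of Tfr cells, of which Cd3e is not named in the sort, were above a scaled TPM of 1 in every library. Yet all 6 were lower in Cebpa-KO and 4 fell. Foxp3 fell from 98.3 ± 13.4 in WT to 6.16 ± 0.82 in Cebpa-KO, Cxcr5 from 275.9 ± 22.9 to 161.3 ± 28.1, Icos from 316.6 ± 39.4 to 191.6 ± 9.01 and Cd3e from 1621 ± 127 to 1205 ± 21.9 (limma, adjusted p = 0.00115, 0.0206, 0.0207 and 0.0410). Without WT replicate 1, WT replicate 2 or either Cebpa-KO library Foxp3 was the 1 marker that passed, and the other 3 then had adjusted p from 0.0547 to 0.23 (limma). Ddx3y, on the Y chromosome, was at 42 to 46.4 in WT and listed at 0 in Cebpa-KO, while Xist was at 0.022 or less in WT, against 10.7 and 11.4 in Cebpa-KO, so the sex of the mice cannot be told apart from the genotype. WT replicate 3 stood apart from the other WT libraries in heat shock and immediate early genes. The summed level of 12 such genes was 1250 and 1350 in WT replicates 1 and 2, 5660 in WT replicate 3, and 6270 and 6710 in Cebpa-KO. Where a call of a named gene changed without WT replicate 3, both results are given, except that these 12 genes are counted as a list.

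The promoters of the 3 genes that fell are shown because C/EBP alpha is a DNA-binding factor and because KLF proteins bind CACCC sequences in each other's promoters. The sequences are the 250 bases before the RefSeq start of each gene, from build GRCm38.p6, 5′ to 3′ on the gene's strand. Capitals mark the letters CCACCC (the CACCC box) or TTNNGNAA (a loose C/EBP pattern), on either strand. No marked match overlaps another.
Klf3, chr5:64803271-64803520, plus strand: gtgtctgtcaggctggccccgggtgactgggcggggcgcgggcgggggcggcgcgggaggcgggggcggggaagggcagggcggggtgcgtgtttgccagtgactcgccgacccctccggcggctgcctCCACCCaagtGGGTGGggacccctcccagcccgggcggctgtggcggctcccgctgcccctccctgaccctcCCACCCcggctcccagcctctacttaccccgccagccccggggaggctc
Foxo1, chr3:52268087-52268336, plus strand: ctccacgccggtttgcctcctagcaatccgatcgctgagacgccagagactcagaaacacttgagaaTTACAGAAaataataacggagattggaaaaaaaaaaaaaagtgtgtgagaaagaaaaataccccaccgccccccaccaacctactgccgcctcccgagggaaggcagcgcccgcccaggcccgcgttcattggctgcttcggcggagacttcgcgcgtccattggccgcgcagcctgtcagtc
Klf13, chr7:63938916-63939165, minus strand: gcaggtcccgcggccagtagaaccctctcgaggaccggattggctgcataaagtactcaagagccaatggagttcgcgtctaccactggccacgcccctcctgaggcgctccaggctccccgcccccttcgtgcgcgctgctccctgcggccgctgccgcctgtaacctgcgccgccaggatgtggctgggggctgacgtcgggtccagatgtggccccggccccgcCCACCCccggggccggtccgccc
Of the 10 genes 9 had a RefSeq promoter entry (not Klf10). The CACCC box letters were found before Klf3 (3 matches, the nearest 49 bases before the start), Klf7 (3 matches), Klf2, Klf13 and Foxp1, which is 5 of 9 genes, and in 28.1% of all 32851 promoter windows of this length. The loose C/EBP pattern was found before 2 of 9 genes, Foxo1 (183 bases before the start) and Foxp1, and in 36.8% of all windows. The FOXO core letters TGTTTAC were in none of the 9 genes' windows and in 3.17% of all. The 9 genes had 11 windows, several of them of Foxp1, so counts of genes and shares of windows are unlike measures. Windows with the CACCC box letters were 59.2% to 78.4% G or C, against a median of 52.4% over all windows. The 2 windows with the C/EBP pattern were at 56.0% and 45.2%. The part of base composition was not tested. These are matches of letters only, and no binding was measured.

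In WT cells the 10 genes spanned a wide range of levels. Klf2 was highest at 100.03 ± 19.5, followed by Foxo1 at 80.0 ± 1.19, Klf10 at 75.3 ± 6.88, Klf6 at 56.6 ± 27.7, Klf13 at 46.0 ± 2.16, Foxp1 at 40.9 ± 8.77 and Klf3 at 31.9 ± 3.89. Each of these 7 overlapped the next in the order over the 3 WT libraries. Klf7 (7.35 ± 0.43) lay below Klf3 without overlap, and Foxo3 (1.35 ± 0.73) below Klf7. Klf4 (0.84 ± 1.27) overlapped Foxo3. In the Cebpa-KO means the order changed at the top, where Klf10 (77.2 ± 13.5) and Klf6 (77.1 ± 6.15) stood above Klf2 (59.0 ± 9.63) and Foxo1 (41.1 ± 2.74). This was not particular to Cebpa-KO. In WT replicate 3 Klf6 (88.6) and Klf10 (83.1) also stood above Foxo1 (81.2) and Klf2 (77.5). The summed level of the 10 genes was 430, 435 and 455 in WT and 327 and 343 in Cebpa-KO.

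**Figure D1:**
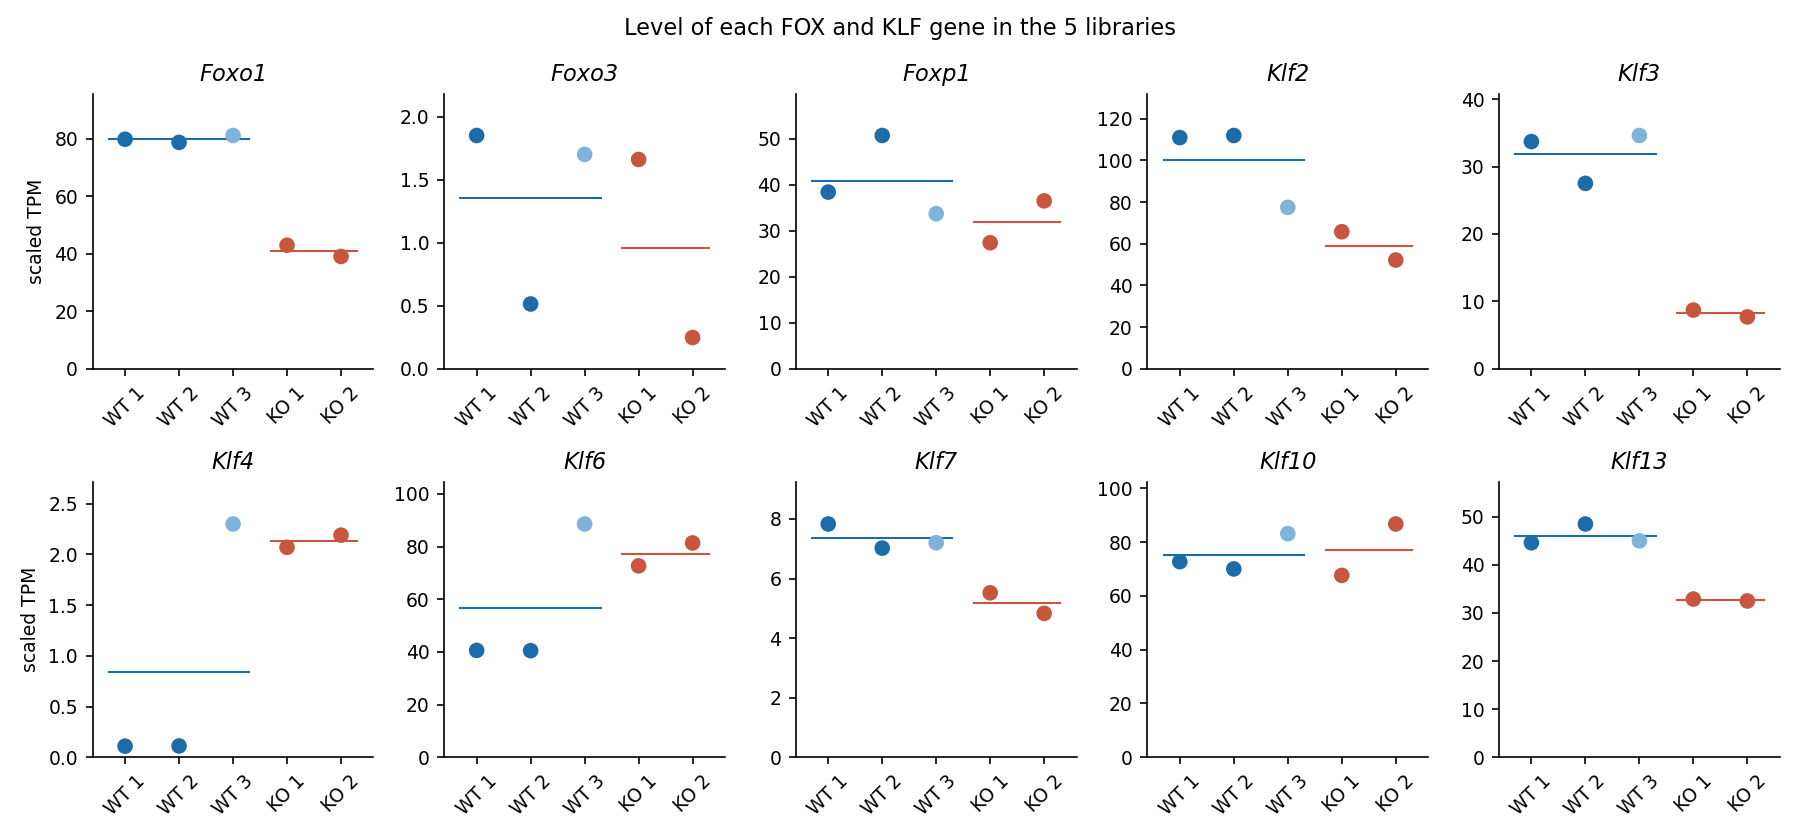
Scaled TPM (y axis, from 0, own scale in each panel) of the 10 genes in WT libraries 1 to 3 (blue, WT 3 in light blue) and Cebpa-KO libraries 1 and 2 (red), with lines at the group means. Foxo1, Klf2, Klf3, Klf7 and Klf13 lie lower in both Cebpa-KO libraries than in every WT library, while for Klf4 and Klf6 WT 3 lies with the Cebpa-KO libraries.

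Of the 10 genes 3 fell in Cebpa-KO and none rose (limma, Benjamini-Hochberg adjusted p under 0.05), where 9.82% of all tested genes fell and 9.93% rose. At an unadjusted p under 0.05, 5 were lower and 0 higher, while 6113 of all 16254 tested genes passed in either direction. The 3 were Klf3, Foxo1 and Klf13. The median log2 difference of the 10 genes was -0.39, beside 0.01 over all tested genes. Both Cebpa-KO libraries lay below every WT library in 5 of the 10 genes, and this held for 28.0% of all tested genes. Without WT replicate 3, 4 of the 10 fell (11.5% of all genes) and 2 rose (13.7%). Of the 2 that rose, Klf4 passed the filter of that fit only through the Cebpa-KO libraries. Against WT replicate 3 alone 2 fell, Foxo1 and Klf3, beside 4.16% of all genes. With Cebpa-KO replicate 1 or 2 left out none of the 10 was called, and 0.158% and 0.113% of all genes fell. In the assembled loci 4 fell (7.96% of all genes), and in coverage per base 4 of the 9 that passed the filter fell (13.2%), with Foxp1 added in the first and Klf7 in the second.

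The forkhead genes are taken first. Foxo1 (ENSMUSG00000044167, mm39 chromosome 3, 52175757 to 52260642) encodes the main FOXO factor of T cells. It stood at 79.9, 78.8 and 81.2 in WT, against 43.0 and 39.1 in Cebpa-KO. The WT libraries were within 3 units of each other, and the Cebpa-KO level was 0.51 times the WT mean. The log2 difference was -0.95 ± 0.08 (standard error) and passed (limma, adjusted p = 0.00623). The choice of WT libraries moved the difference little, to -0.94 when WT replicate 3 was left out and -0.97 when it was the sole WT library, although the call ended when either Cebpa-KO library was left out (limma, adjusted p = 0.0617 and 0.0739).

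Foxo3 (ENSMUSG00000048756, chromosome 10, 42057837 to 42152751), a paralogue with overlapping targets, was scarce. It stood at 1.85, 0.514 and 1.70 in WT, against 1.66 and 0.248 in Cebpa-KO, and passed the filter on low values in 3 of 5 libraries. The groups overlapped, and the log2 difference of -0.31 ± 0.44 (standard error) did not pass (limma, adjusted p = 0.634). These levels are sums over the transcripts that were assigned to the gene. In coverage per base of the gene, expressed as the TPM that a gene with a single transcript would have, Foxo3 was at 0.680, 0.512 and 0.688 in WT, against 0.338 and 0.249 in Cebpa-KO. By that measure the groups did not overlap and Cebpa-KO was at 0.47 times WT, but Foxo3 fell below the filter and was not tested. The ratio of the transcript sum to the coverage ranged from 1.00 to 4.92 between libraries, with WT replicate 2 and Cebpa-KO replicate 2 at the low end.

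Foxp1 (ENSMUSG00000030067, chromosome 6, 98902299 to 99499682) encodes a forkhead repressor that keeps naive T cells quiescent. It stood at 38.4, 50.7 and 33.7 in WT, against 27.4 and 36.5 in Cebpa-KO, with overlapping groups (log2 difference -0.34, standard error 0.21, limma, adjusted p = 0.296). Its level depended most on the measure, since the transcript sum was 6.24 to 9.84 times the coverage per base. Coverage per base gave 5.93, 5.61 and 4.84 in WT and 4.39 and 3.71 in Cebpa-KO, without overlap. The loci assembled from the reads of each library, summed where they overlap the gene on its strand, gave 187, 162 and 150 in WT and 108 and 113 in Cebpa-KO. In that form Foxp1 fell, with a log2 difference of -0.58 (limma, adjusted p = 0.0366). A second annotated gene, Gm20696, shares 265238 bases of the same strand with Foxp1, so reads of the pair may be split, and the assembled loci may hold reads of both. Gm20696, named after its values were seen, fell from 9.0 ± 0.94 to 5.34 ± 0.10 (limma, adjusted p = 0.0317), a call that held without WT replicate 3 and ended without any other single library (0.065 to 0.176).

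**Figure D2:**
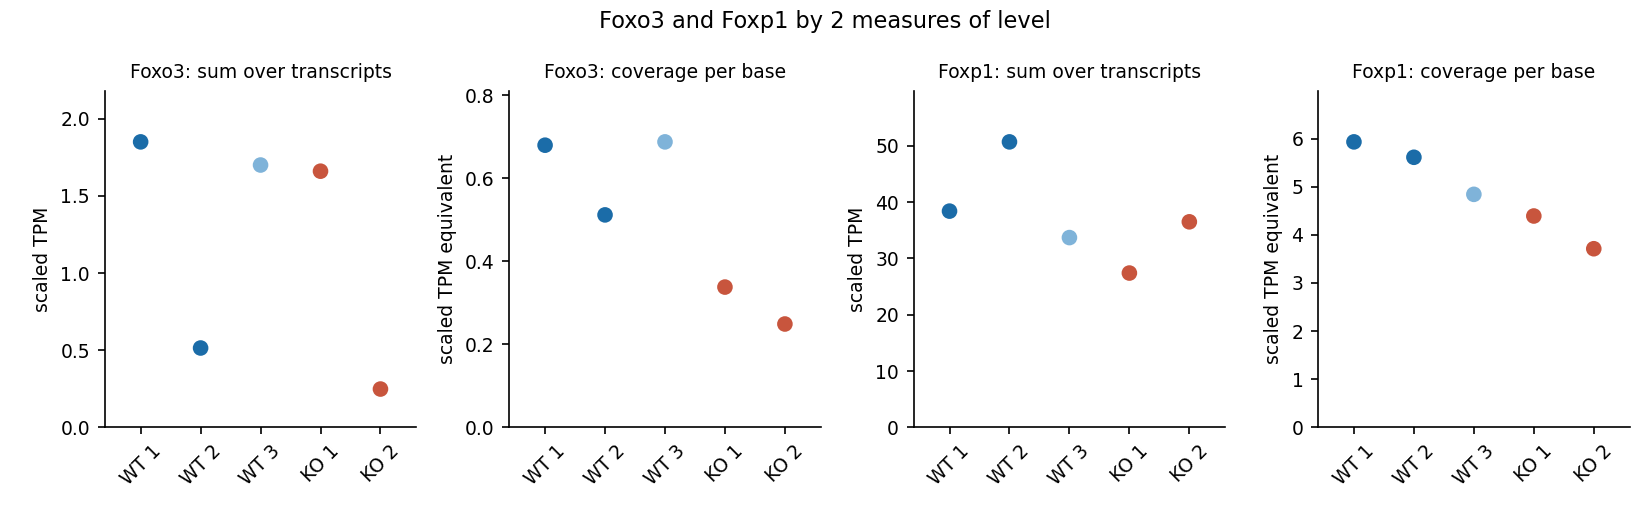
Foxo3 and Foxp1 in WT (blue, WT 3 in light blue) and Cebpa-KO (red) libraries, as the sum over transcripts in scaled TPM and as coverage per base in the same unit (y axes from 0). The groups overlap in the transcript sums of both genes and do not overlap in coverage per base.

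Among the Krüppel-like factors Klf3 changed most. Klf3 (ENSMUSG00000029178, chromosome 5, 64960731 to 64990244) encodes a repressor that competes with activating family members for CACCC sites. It stood at 33.7, 27.5 and 34.6 in WT, against 8.71 and 7.70 in Cebpa-KO. Every WT library was more than 3 times higher than either Cebpa-KO library. The mean was 3.89 times lower in Cebpa-KO, a log2 difference of -1.83 ± 0.14 (standard error) (limma, adjusted p = 0.0055). Against WT replicate 3 alone the difference was -1.96, and in coverage per base the Cebpa-KO level was 0.25 times WT. The call ended when Cebpa-KO replicate 1 or 2 was left out (limma, adjusted p = 0.0608 and 0.0703).

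Other transcripts of the Klf3 locus were lower too. They were looked at after the value of Klf3 was known, as all annotated genes within 3 kb of the 10 genes. Gm20033, on the opposite strand, shares 786 bases with the start of Klf3. It stood at 9.97, 10.3 and 9.45 in WT, against 3.61 and 2.76 in Cebpa-KO, and its log2 difference was -1.39 (limma, adjusted p = 0.00763). C230096K16Rik, on the strand of Klf3 and within it, stood at 4.63, 2.81 and 4.04 in WT, against 1.07 and 0.986 in Cebpa-KO, and its log2 difference was -1.23 (limma, adjusted p = 0.0198). The groups were apart in both, and neither passed without Cebpa-KO replicate 1 or 2 (limma, adjusted p = 0.0635 and 0.0750 for Gm20033, 0.121 and 0.128 for C230096K16Rik). Gm20033 did not pass against WT replicate 3 alone either (limma, adjusted p = 0.0538). No source used here gives the strand setting of the counting, so reads in shared bases could belong to either gene.

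**Figure D3:**
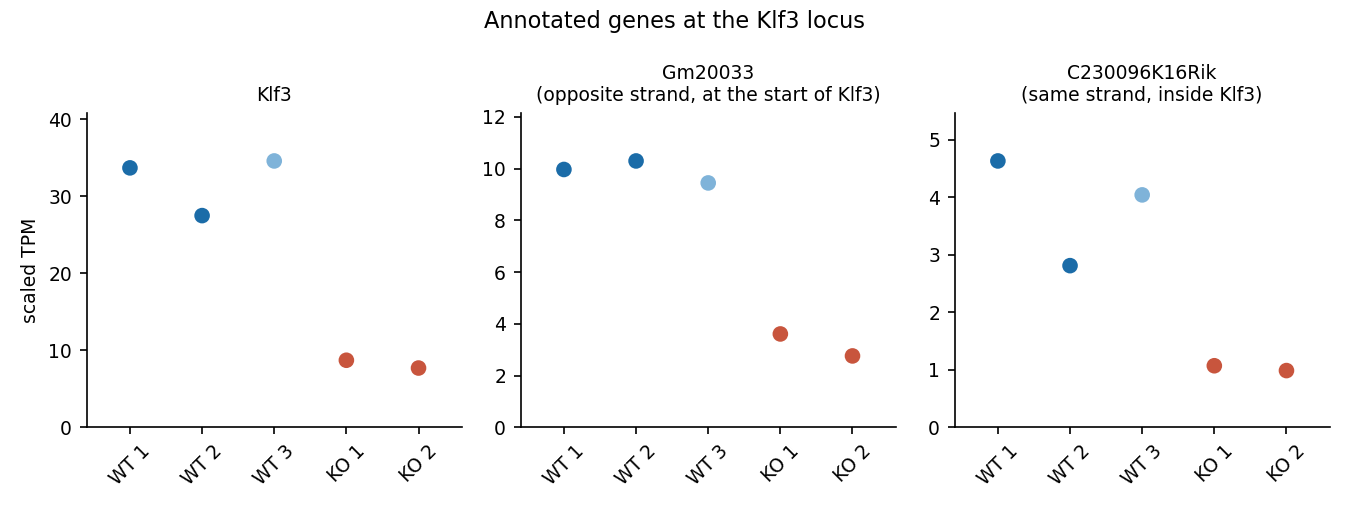
Scaled TPM (y axes from 0) of Klf3 and the 2 annotated genes that share bases with it, in WT (blue, WT 3 in light blue) and Cebpa-KO (red) libraries. All 3 lie lower in both Cebpa-KO libraries than in any WT library.

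Klf2 (ENSMUSG00000055148, chromosome 8, 73072877 to 73075500), the factor that keeps T cells recirculating and restrains follicular helper differentiation, was lower in Cebpa-KO but did not pass with all libraries. It stood at 111, 112 and 77.5 in WT, against 65.8 and 52.2 in Cebpa-KO. The groups did not overlap, and WT replicate 3 lay between the other WT libraries and Cebpa-KO. The log2 difference was -0.74 ± 0.20 (standard error) and missed the threshold (limma, adjusted p = 0.0564). Without WT replicate 3 it was -0.92 and passed (limma, adjusted p = 0.0141), and against WT replicate 3 alone it was -0.40 (limma, adjusted p = 0.206).

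Klf13 (ENSMUSG00000052040, chromosome 7, 63536099 to 63588663), known as an activator of the chemokine gene Ccl5 in T cells, showed a smaller fall. It stood at 44.6, 48.5 and 45 in WT, against 32.9 and 32.5 in Cebpa-KO, without overlap. The log2 difference of -0.48 ± 0.08 (standard error) passed (limma, adjusted p = 0.0210). It lost its call without WT replicate 2 or either Cebpa-KO library (limma, adjusted p = 0.0664, 0.144 and 0.148). Klf7 (ENSMUSG00000025959, chromosome 1, 64068606 to 64161441), best known from neurons, stood at 7.83, 7.02 and 7.20 in WT, against 5.52 and 4.83 in Cebpa-KO. These groups were apart as well, but the log2 difference of -0.44 did not pass (limma, adjusted p = 0.0756). In coverage per base Klf7 passed, at -0.55 (limma, adjusted p = 0.0188), whereas the assembled loci gave overlapping groups.

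Klf4 and Klf6 did not divide by genotype. Klf4 (ENSMUSG00000003032, chromosome 4, 55527143 to 55532466), which restrains division of T cells and is also an immediate early gene, was nearly absent from WT replicates 1 and 2 (0.110 and 0.112). WT replicate 3 had 2.3 and the Cebpa-KO libraries 2.07 and 2.19, and the gene passed the filter on low values through these 3 libraries. Klf6 (ENSMUSG00000000078, chromosome 13, 5911481 to 5920393), another rapidly induced family member, had levels of 40.6, 40.5 and 88.6 in WT and of 72.7 and 81.4 in Cebpa-KO. For both genes WT replicate 3 was the highest of all 5 libraries. With all libraries the log2 differences were 0.97 for Klf4 and 0.54 for Klf6, and neither passed (limma, adjusted p = 0.235 and 0.331). Without WT replicate 3 both rose, Klf4 by 1.5 and Klf6 by 0.90 (limma, adjusted p = 0.00827 and 0.00834), in a fit where 13.7% of genes rose. Klf4 passed the filter of that fit only through the Cebpa-KO libraries, so the filter favoured its rise there. Against WT replicate 3 alone the differences were -0.08 and -0.21.

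WT replicate 3 was the highest WT library in each of the 12 heat shock and immediate early genes, but not all of them set it beside Cebpa-KO. Hspa1a, which encodes an HSP70 chaperone, had levels of 0.911, 0.684 and 690 in WT and of 1150 and 1240 in Cebpa-KO. Fos, a subunit of AP-1, stood at 48.2, 66.8 and 619 in WT, against 583 and 617 in Cebpa-KO. Jun stood at 37.1, 49.5 and 275 in WT, against 272 and 304 in Cebpa-KO. Egr1, an immediate early gene, went the other way, at 150, 165 and 190 in WT, against 124 and 123 in Cebpa-KO. For Atf3, a stress-induced factor, WT replicate 3 stayed with WT, at 0.0513, 0 and 0.746, against 8.27 and 7.50 in Cebpa-KO. Egr1 and Atf3 were named after their values were seen. Of the 12 listed genes 11 rose and 1 fell without WT replicate 3, beside 13.7% and 11.5% of all genes. With all libraries 1 rose, Atf3, beside 9.93% of all genes. Atf3 passed the filter only through the Cebpa-KO libraries in both fits. Without WT replicate 3 this also held for others of the 11, among them Hspa1a, so the filter favoured their rise. The part of handling in the levels of Klf4, Klf6 and Klf2 was not tested.

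Klf10 (ENSMUSG00000037465, chromosome 15, 38291707 to 38300950), a TGF-beta-induced gene that supports Foxp3 expression, showed no detectable difference. It stood at 72.7, 70.0 and 83.1 in WT, against 67.6 and 86.7 in Cebpa-KO. The Cebpa-KO libraries were the lowest and the highest of the 5 (log2 difference 0.03, standard error 0.14, limma, adjusted p = 0.895).

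**Figure D4:**
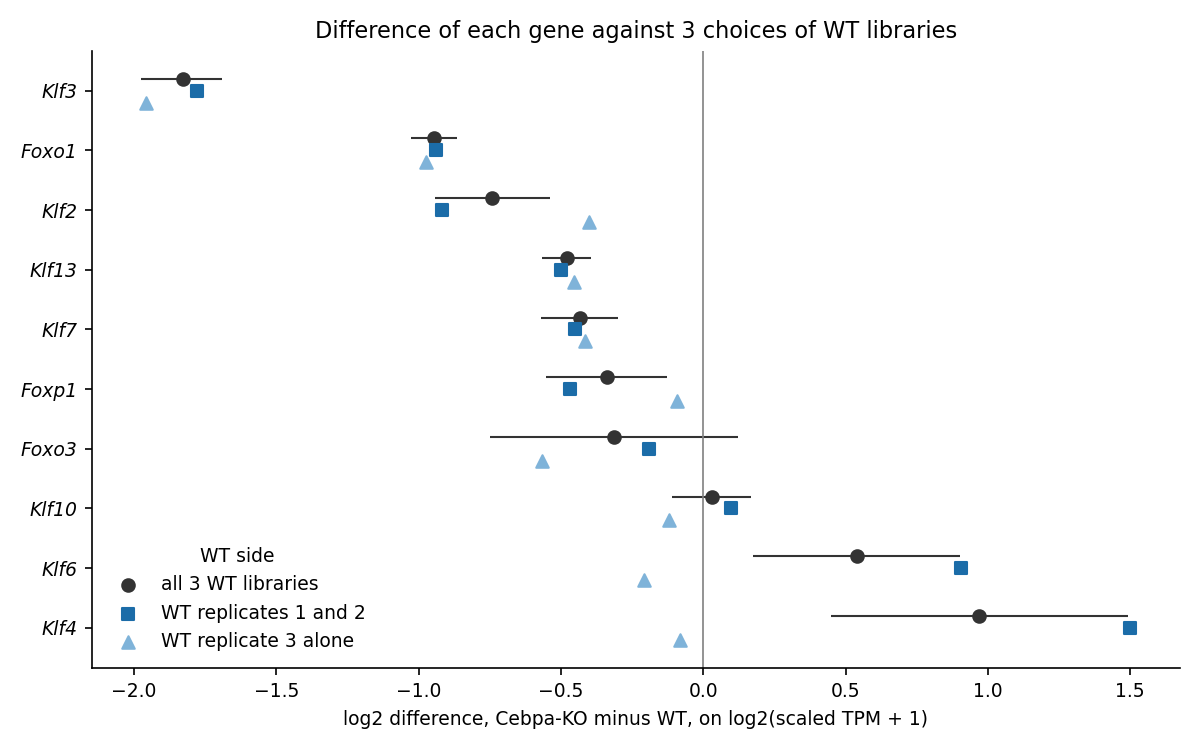
Log2 difference between Cebpa-KO and WT (x axis, on log2 of scaled TPM + 1) of the 10 genes against all 3 WT libraries (circles, bars are the standard error), WT replicates 1 and 2 (squares) and WT replicate 3 alone (triangles). The 3 comparisons share the Cebpa-KO libraries. For Foxo1, Klf7 and Klf13 the 3 values lie close to each other, whereas Klf4 and Klf6 go from 1.5 and 0.90 to -0.08 and -0.21.

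Genes of other cell types were looked at because KLF2 and KLF4 are abundant in endothelial and myeloid cells. Of 5 endothelial markers 4 were below a scaled TPM of 1 in all libraries, and only Pecam1, which T cells also express, was above it. The summed level of 10 myeloid markers was 97.8, 67.0 and 165 in WT and 293 and 90.7 in Cebpa-KO. The sum of 8 B cell markers was 135, 135 and 184 in WT and 253 and 56.9 in Cebpa-KO, and that of 5 plasma cell markers was 57.7, 34.6 and 561 in WT and 230 and 72.9 in Cebpa-KO. None of these 3 sums separated the genotypes. The sum of 5 erythroid markers was 89.8, 60.5 and 708 in WT and 2130 and 234 in Cebpa-KO. In these bulk pools fewer cells of a type and less RNA per cell cannot be told apart.

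Genes that FOXO factors are known to induce were mostly lower. Of 25 listed targets 12 fell and none rose (limma), beside 9.82% and 9.93% of all tested genes. At an unadjusted p under 0.05 there were 18 lower and 0 higher, beside 6113 of all 16254 genes in either direction. The median log2 difference of the targets was -0.80, beside 0.01 over all tested genes. It was negative in 22 of the 25, though near 0 in some of them. The targets named here were picked by smallest p, so they are not typical of the list. Sesn1, a stress sensor that damps mTORC1, stood at 165, 170 and 121 in WT, against 27.5 and 21.8 in Cebpa-KO, a log2 difference of -2.57 (limma, adjusted p = 0.00543). Pik3ip1, an inhibitor of PI3K, fell from 56.8 ± 2.33 to 19.7 ± 1.30. Txnip, which limits glucose uptake, fell from 168.6 ± 4.50 to 79.9 ± 1.25. The spread within each group was small beside these differences. Fbxo32, a ubiquitin ligase of atrophy, fell from 11.8 ± 0.64 to 5.85 ± 0.25, and Ctla4, an inhibitory receptor, from 476.4 ± 68.4 to 264.3 ± 8.03. The count moved with the fit, and so did the share of all genes that fell. It was 15 without WT replicate 3 (11.5% of all genes), 9 against WT replicate 3 alone (4.16%), 4 without WT replicate 2 (2.44%), 4 with no filter on low values (1.64%) and 0 without Cebpa-KO replicate 1 or 2 (0.158% and 0.113%). Without either Cebpa-KO library the 5 genes named here had adjusted p from 0.0566 to 0.120 (limma). Ctla4 did not pass without WT replicate 2 (limma, adjusted p = 0.0620), nor Fbxo32 against WT replicate 3 alone (0.0502). The sorting markers Cxcr5 and Icos and the T cell marker Cd3e fell in the same comparison, and their part in these counts was not tested.

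Of 6 genes linked to KLF2, 4 fell and none rose (limma), beside 9.82% and 9.93% of all tested genes, with a median of -0.98. At an unadjusted p under 0.05 there were 5 lower and 0 higher, beside 6113 of all 16254 genes in either direction. The shares of all genes in the other fits are those given with the FOXO targets. The count was 5 without WT replicate 3, 1 with no filter, and 0 without WT replicate 2 or either Cebpa-KO library. S1pr1, the receptor that lets T cells leave lymphoid organs, was at 162, 154 and 101 in WT, against 57.0 and 57.8 in Cebpa-KO (log2 difference -1.23, limma, adjusted p = 0.0213). In S1pr1, as in Klf2, WT replicate 3 was the lowest WT library and still above Cebpa-KO. S1pr4, a related receptor, and Itgb7, an integrin chain of gut homing, fell by 0.94 and 0.75, but S1pr4 stood at 0.18 in the assembled loci and did not pass there (limma, adjusted p = 0.187). Ccr7, a lymph node homing receptor, was at 219, 186 and 125 in WT, against 101 and 70.5 in Cebpa-KO and did not pass (limma, adjusted p = 0.0577). Ccr7 passed without WT replicate 3, at -1.25 (limma, adjusted p = 0.0175), and stood at -0.57 against WT replicate 3 alone (0.223). Cdkn1a, the cell cycle inhibitor p21, overlapped between groups, at 11.7, 8.73 and 23.3 in WT, against 15.6 and 38.8 in Cebpa-KO. S1pr1 and Ccr7 belong to this list and also to the FOXO targets. In coverage per base 4 genes of this list fell and 1 rose, beside 13.2% and 13.5% of all genes. S1pr1 lost its call without WT replicate 1 or 2 (limma, adjusted p = 0.0557 and 0.0726), S1pr4 without WT replicate 2 (0.0531), and Itgb7 without WT replicate 2 (0.0635) or against WT replicate 3 alone (0.0815). Without either Cebpa-KO library these 3 had adjusted p from 0.0813 to 0.129 (limma).

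Other quiescence factors and the PI3K pathway went both ways. Of 16 tested quiescence factors 4 fell and 1 rose, beside 9.82% and 9.93% of all tested genes, with a median of -0.36. The share of all genes that fell was 6.32% without WT replicate 1, and 13.7% rose without WT replicate 3. The other shares are those given with the FOXO targets. The count of falls was 6 without WT replicate 1, 2 without WT replicate 3, 1 without WT replicate 2, 1 with no filter and 0 without either Cebpa-KO library. Rises numbered 2 without WT replicate 3 and 0 without either Cebpa-KO library. Vsir, the inhibitory receptor VISTA, fell from 186.4 ± 11.1 to 98.9 ± 8.10, whereas Btg2, an antiproliferative gene, rose from 61.1 ± 5.02 to 124.8 ± 2.49. Ets1, Tsc1, an inhibitor of mTORC1, and Dgkz, which damps diacylglycerol signals, fell by 0.45, 0.58 and 0.66. Without WT replicate 3 Tsc1 and Dgkz did not pass (limma, adjusted p = 0.0539 and 0.0606), and without WT replicate 2 none of Ets1, Tsc1 and Dgkz did (0.0825, 0.105 and 0.122). Without either Cebpa-KO library the 5 named factors had adjusted p from 0.0710 to 0.210 (limma). Of 16 tested PI3K and AKT genes 3 fell and 1 rose, beside the same shares of all genes, with a median of -0.36. Akt2 rose from 58.5 ± 5.43 to 104.2 ± 5.26. Among the genes that fell were Pik3ip1, shared with the FOXO targets, and Pik3r1, a regulatory subunit of PI3K, which was at 30.1, 25.7 and 29.9 in WT, against 18.9 and 19.3 in Cebpa-KO (log2 difference -0.56, limma, adjusted p = 0.0273). Pik3r1 did not pass without WT replicate 1 or 2 (limma, adjusted p = 0.0627 and 0.0522) or against WT replicate 3 alone (0.0531). Rises numbered 2 without WT replicate 3. In coverage per base 7 fell and 1 rose, beside 13.2% and 13.5% of all genes. Falls numbered 1 without WT replicate 2, and falls and rises both 0 without either Cebpa-KO library, where the 3 named genes had adjusted p from 0.0582 to 0.166 (limma).

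**Figure D5:**
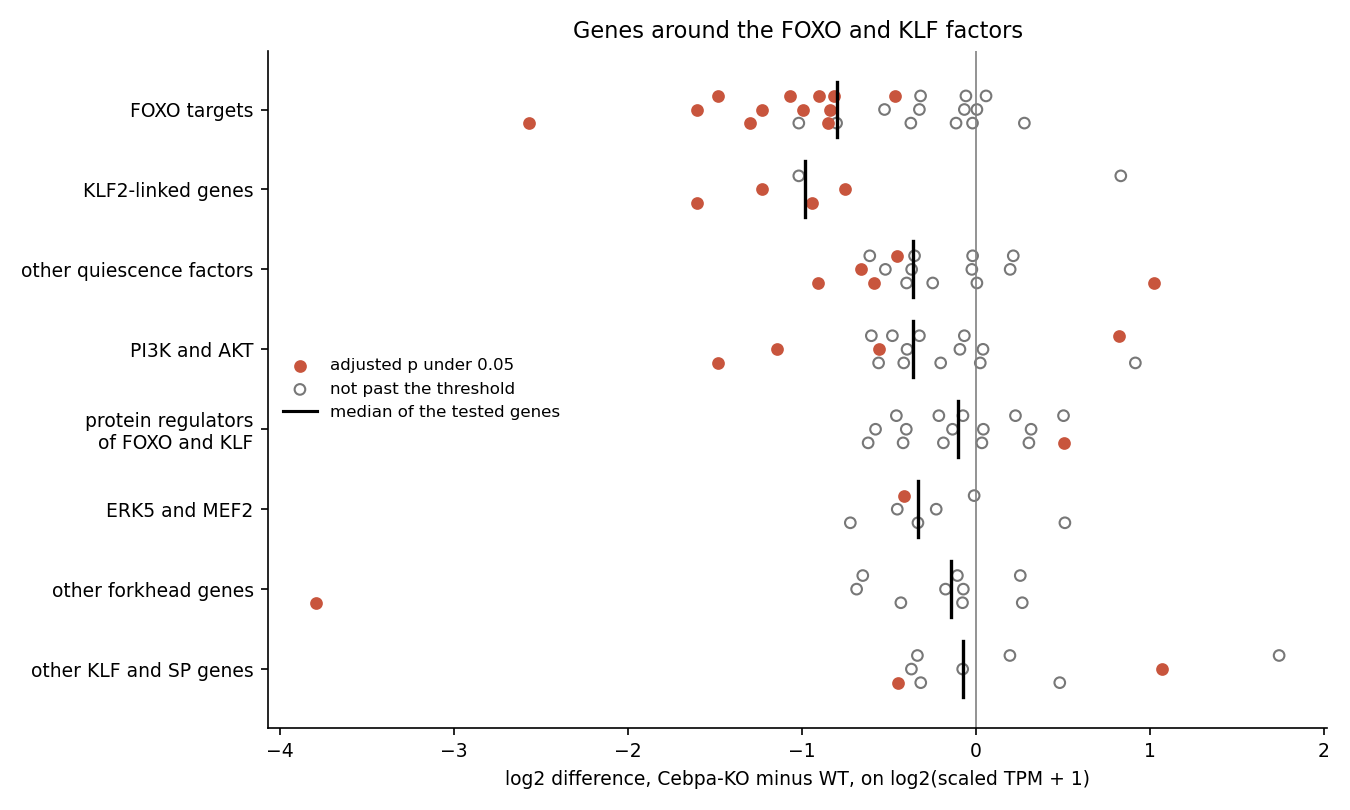
Log2 difference between Cebpa-KO and WT (x axis, on log2 of scaled TPM + 1) of each tested gene in 8 lists around the FOXO and KLF factors, filled where the adjusted p was under 0.05, with a bar at the median of each list. The medians of the FOXO targets and of the KLF2-linked genes are -0.80 and -0.98, and the farthest point on the left is Foxp3.

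Proteins that act on FOXO or KLF factors and the ERK5 pathway, which induces Klf2 and Klf4, held 2 calls. Of 16 such regulators Ywhae, a 14-3-3 protein that can hold phosphorylated FOXO in the cytoplasm, rose from 228.4 ± 13.3 to 324.8 ± 1.14 (log2 difference 0.51, limma, adjusted p = 0.0170) and none fell, with a median of -0.10. At an unadjusted p under 0.05, 3 regulators were lower and 4 higher, beside 6113 of all 16254 tested genes in either direction. After adjustment 9.82% of all genes fell and 9.93% rose. Ywhae did not pass without WT replicate 2 (limma, adjusted p = 0.0548) or either Cebpa-KO library (0.128 and 0.125). Without WT replicate 1 there were 2 falls (6.32% of all genes), and without WT replicate 3 there were 2 rises (13.7%). Smurf1, a ubiquitin ligase of KLF2, was at 12, 16.1 and 14 in WT, against 9.23 and 8.82 in Cebpa-KO and did not pass (limma, adjusted p = 0.0524), but passed without WT replicate 1 (0.0499). Of 7 genes of the ERK5 and MEF2 pathway Map3k3, a kinase upstream of ERK5, fell by 0.41, and the median was -0.33. Map3k3 did not pass without WT replicate 2 (limma, adjusted p = 0.0721), either Cebpa-KO library (0.17 and 0.139) or against WT replicate 3 alone (0.0663). Mef2d, a target of ERK5, had a log2 difference of -0.72 and did not pass (limma, adjusted p = 0.0524). It passed without WT replicate 3, at -0.56 (limma, adjusted p = 0.0284), without WT replicate 1 (0.0486) and against WT replicate 3 alone, at -1.06 (0.0409).

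In the remaining forkhead genes 1 of 10 tested genes fell, Foxp3, and none rose (limma). At an unadjusted p under 0.05 there were 4 lower and 0 higher, beside 6113 of all 16254 genes in either direction. Over all tested genes 9.82% fell and 9.93% rose after adjustment, which also stands beside the KLF and SP genes below. Foxj2 also fell without WT replicate 1 and against WT replicate 3 alone (limma, adjusted p = 0.0348 and 0.0409). Foxo4, the third FOXO gene expressed here, was at 1.07, 1.42 and 1.05 in WT, against 0.532 and 0.693 in Cebpa-KO, without overlap, and did not pass (limma, adjusted p = 0.120). Of 9 tested KLF and SP genes outside the 10, Sp3, a ubiquitous GC-box factor, fell by 0.45 and Klf11, a TGF-beta-induced relative of Klf10, rose from 4.71 ± 1.54 to 10.7 ± 1.14 (limma, adjusted p = 0.0429). Sp3 did not pass without WT replicate 2 (limma, adjusted p = 0.0573), either Cebpa-KO library (0.133 and 0.137) or against WT replicate 3 alone (0.0534). Klf11 did not pass without WT replicate 1 or 2 (limma, adjusted p = 0.0595 and 0.111), without either Cebpa-KO library (0.213 and 0.161) or against WT replicate 3 alone (0.0875). Klf1, the erythroid family member, was at 1.15, 0.532 and 3.30 in WT, against 19.2 and 2.25 in Cebpa-KO, and its highest library was also the one with the highest erythroid sum.

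The genes whose profile over the 5 libraries was nearest to a called member were found by the root mean square distance between log2 levels centred on their mean, and the measure is a description of 5 libraries. Nearest to Foxo1 were Tecpr1 (distance 0.02) and Rab37 (0.04), at 89.4 and 178.8 in WT and 46.1 and 94.0 in Cebpa-KO. Nearest to Klf3 were Wdfy1 (0.04) and Dbp (0.08), and nearest to Klf13 were Slc2a8 (0.02) and Secisbp2l (0.03).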

How the data were processed

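The 10 genes and the gene lists were chosen with earlier results of these data known. Per the submitters' processing notes, reads were processed with STAR 2.7.11b and StringTie 2.1.3b on mm39. No source used here gives the annotation release or the strand setting. TPM as deposited by the authors counts here as a score, because assembled loci and annotated genes repeat the same signal in that column. Annotated rows were used. FPKM values deposited by the authors are summed over transcripts, and the coverage deposited by the authors is a mean signal per base. Their ratio gave the aligned depth, and coverage per base served as an alternative level. The tables hold no read counts, so no count model or counting interval was used.

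TPM was divided by each library's median ratio to the geometric mean (0.984 to 1.04). Genes that reached a TPM of 1 in 2 or more libraries were tested on log2(scaled TPM + 1), which understates changes of low genes, with limma 3.58.1 in R 4.3.3, an intensity trend, Benjamini-Hochberg adjustment over all 16254 genes and a threshold of 0.05. The fit was tested on simulated data. Named genes were the 10 genes, Cebpa, Foxp3, Hspa1a, Fos, Jun, up to 6 genes per pathway list by smallest p, and the 2 nearest profiles, with a mean of at least 5, of each called member. Ddx3y, Xist, Pecam1, Cxcr5, Icos, Cd3e, Egr1, Atf3 and the neighbours of Klf3 and Foxp1 were named after their values were seen. Promoters came from RefSeq (GRCm38.p6) and their coordinates were not mixed with those of mm39. Alternatives were a pseudocount of 0.1 or 5, omitting the filter, raising it to 5, unscaled TPM, quantile normalization, no trend, array weights, each library left out, WT replicate 3 alone for WT and a replicate block. The assembled loci and coverage per base were added after seeing the data. Tables were read with pandas 2.3.3. Some listed genes stay in the counts of their lists and are not reported here by name.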

Additional observations from a re-analysis of the deposited data

How the results depend on the processing

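Foxo1 and Klf3 kept their direction and their call under all alternatives except leaving out a Cebpa-KO library, which leaves that group with a single library assumed to vary like the others. Over the fits that leave out a library Foxo1 ranged from -1.01 to -0.88 and Klf3 from -1.94 to -1.75. Klf13 ranged from -0.50 to -0.45 over those fits, and did not pass against WT replicate 3 alone (-0.46) or in the fit with a replicate block (-0.50). Klf2 ranged from -0.92 to -0.57 and passed with quantile normalization (-0.76), array weights (-0.83) and the replicate block (-0.91). Klf4 ranged from 0.70 to 1.5 and Klf6 from 0.35 to 0.90, and both passed under the block (1.49 and 0.91). Foxp1 passed in the assembled loci (-0.58) and Klf7 in coverage per base (-0.55).

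Of the 10 genes 0 to 4 were lower and 0 to 2 higher when a library was left out, and 2 were higher under the block. Over all genes 18 to 1825 were lower and 5 to 2177 higher when a library was left out. No filter gave 629 lower and 930 higher, array weights 2440 and 2575, and WT replicate 3 alone 647 and 1014, while the block gave 1050 lower. Of the pathway genes 23 fell and 4 rose, with 1 to 26 lower and 0 to 7 higher when a library was left out, 10 lower with no filter and 7 higher with array weights. In the assembled loci S1pr4 stood at 0.18. The cause of these shifts was not tested. Deviations from the group mean correlated at r = -0.18 between the libraries of number 1 and 0.27 between those of number 2. The deviations of the 2 Cebpa-KO libraries mirror each other, so these values cannot show whether the numbers pair the samples. The labels give no pairing, and the block, which sets WT replicate 3 aside, was not read as a paired analysis.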
